A study of Mus musculus with 4 samples.

Results

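Dermal cells from the abdominal skin of 15 dpc pregnant mice injected with PP2, an inhibitor of Src family kinases, were compared with dermal cells from the abdominal skin of virgin mice injected with DMSO, the vehicle. The comparison took 2 of the 4 Affymetrix arrays of the series, 1 on each side, and covered the 13101 genes that at least 1 of these 2 arrays detected, of 18193 genes with a probe set of their own. Every mouse was a C57BL/6 female labelled as 10 weeks old and received intradermal injections 2 times a day for 4 days, started at 12 dpc in the pregnant mice. The sample titles give the pregnant stage as 15 dpc and the sample descriptions as 16 dpc. The other 2 arrays held 15 dpc abdominal skin with DMSO and 15 dpc dorsal skin with DMSO, and their values are set beside those of the compared pair. Here the 4 are called the PP2, virgin, vehicle and dorsal arrays. The comparison asks what differed from virgin abdominal dermis when pregnancy was combined with Src inhibition. The PP2 and virgin arrays differ in both pregnancy and inhibitor, so these influences cannot be told apart, and with 1 array a side no error, p-value or test can be given. The sources used here do not say if the RNA on an array came from 1 mouse or more.

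The dermis is a layer of collagen-rich connective tissue made mainly by fibroblasts, and it also holds blood vessels, nerves, macrophages and the lower parts of hair follicles. In pregnancy the skin over the abdomen expands as the fetuses grow. Src family kinases are tyrosine kinases that pass signals from integrins and growth factor receptors, and they take part in the contractile activation of fibroblasts. The cells were freed by dispase and then collagenases and hyaluronidase after the subcutaneous fat was cut away, with no sort for a cell type. The tissue label held against its markers. The fibroblast genes Col1a2 and Dcn gave 25696 and 32528 on the virgin array and 19808 and 21902 on the PP2 array. Epidermal keratin was present as well, with Krt5 at 13760 and 8098. In such a mixed preparation, fewer cells of a type and less RNA per cell cannot be told apart.

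Each value is a MAS5 signal, an intensity in arbitrary units on a linear scale, with a call of present, marginal or absent from the same algorithm. The arrays called between 58.4% and 59.7% of their probe sets present. The PP2 array stood apart in several technical readings. Its Gapdh 3′ to 5′ signal ratio was 5.84, against 1.41 to 2.97 on the others, while its Actb ratio of 2.70 lay inside their range of 2.03 to 4.14. The median of 18 hybridisation spike-in signals was 2158 on the PP2 array and 4176 to 6880 elsewhere, and the 18S ribosomal RNA 5′ probe set read 256 against 9632 to 18337. The brightest signal on the PP2 array was 26947, against 41761 to 51622 on the others. The part of these readings in the differences below was not tested.

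A gene was called higher or lower when its representative probe set differed more than 2-fold and had a present call where it was brighter. By this rule 440 genes were higher on the PP2 array and 596 were lower, which is 3.36% and 4.55% of the genes compared. These shares are the background for every count of a gene group that follows. The median fold was 2.43 among the higher genes and 2.46 among the lower, and 69 and 67 genes went past 4-fold. The median log2 ratio of all genes was 0.02. The direction of the majority depended on scaling: lower genes were 57.5% of the calls with the deposited signals, but 38.4% (667 higher and 416 lower) when the arrays were scaled to one median and 33.3% (662 and 330) after quantile normalization. Those scalings moved the median log2 ratio of all genes from 0.02 to 0.17 and 0.09. The counts given below for gene lists and the named calls use the deposited signals. Scaling to one median raises every log2 ratio by the same step, so genes called lower by little more than 2-fold would not pass under it. Dim genes gave most of the calls. With the genes ranked by mean signal and cut into 4 equal groups, 18.7% were called in the dimmest group and 2.78% in the brightest. Of the higher genes, 180 were not called present on the virgin array, and of the lower genes, 195 were not called present on the PP2 array. For those the fold is a lower bound, set against the larger of the dim array's own signal and the dimmest present signal of that array, and it is written "at least". The call itself used the ratio of the deposited signals, so the bound of a called gene can lie below 2.

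**Figure D1:**
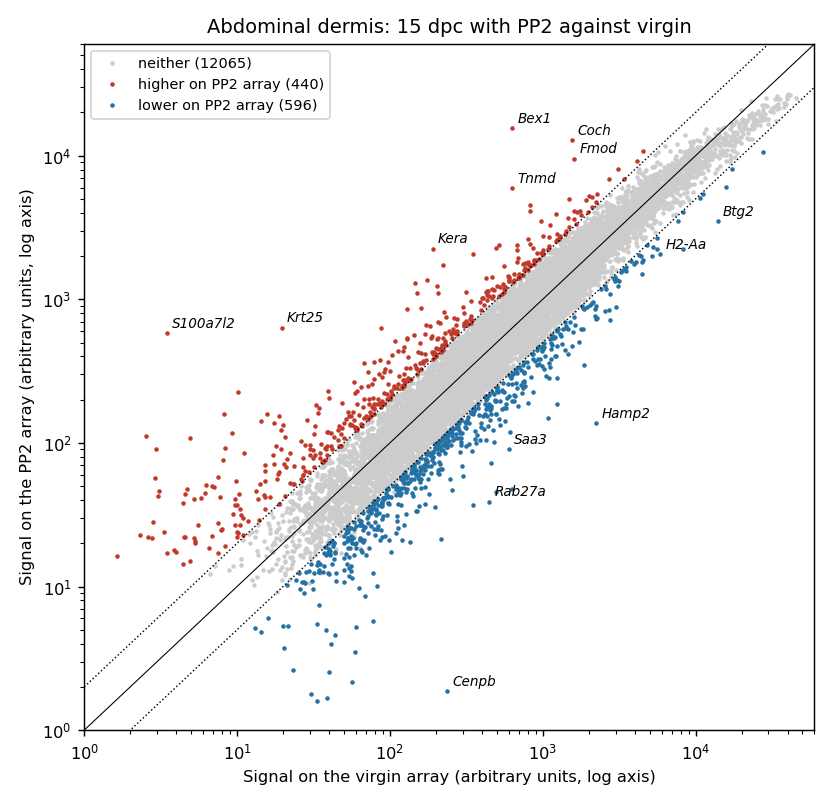
Signal of each of 13101 genes on the virgin array (x axis) and the PP2 array (y axis), both in arbitrary units on log axes, with 440 genes called higher in red, 596 called lower in blue and the rest in grey. The solid line marks equal signals and the dotted lines a 2-fold difference. Kera, Tnmd, Coch and Fmod stand well above the cloud of bright genes.

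Several of the largest ratios among genes present on both arrays belonged to tendon and fascia proteins and matrix proteoglycans. Of the 16 detected members of a tendon and fascia list, 7 were higher on the PP2 array, 0 were lower, and the median log2 ratio was 0.70. Kera encodes keratocan, a small leucine-rich proteoglycan best known from the cornea that organises collagen fibrils. Its signal was 191 on the virgin and 2251 on the PP2 array, 11.8-fold higher, with 191 on the vehicle array and 628 on the dorsal array. Tnmd encodes tenomodulin, a membrane glycoprotein of tendon and ligament cells, and went from 629 to 5931, 9.43-fold, with 800 on the vehicle array and 3399 on the dorsal array. Coch encodes cochlin, a secreted matrix protein named for the inner ear, and read 1561 and 12768, 8.18-fold, beside 1574 and 9545. For all 3 the vehicle array lay close to the virgin array and the dorsal array lay between the vehicle and PP2 arrays. Mkx, the Mohawk homeobox transcription factor of tendon development, was 144 on the virgin and 567 on the PP2 array, 3.95-fold higher, with 148 and 423 on the vehicle and dorsal arrays. Edil3, a secreted ligand of integrins, was 2.29-fold higher, but its other 2 detected probe sets were lower. Other genes of the list did not pass. Scx, the tendon transcription factor scleraxis, read 144 and 99.9, Thbs4 202 and 173, and Comp, cartilage oligomeric matrix protein, 142 and 79.3. Of 24 measured skeletal muscle genes 9 were detected, all dim, 0 were higher and 3 lower, and their summed signal was 1113 on the virgin and 774 on the PP2 array.

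Small leucine-rich proteoglycans bind collagen and set the width and spacing of its fibrils. Of 12 detected members, 5 were higher and 1 was lower, with a median log2 ratio of 0.46 on the PP2 array over the virgin array, -0.08 on the vehicle array and 0.33 on the dorsal array, all 3 medians being taken against the one virgin array. Fmod, fibromodulin, was 1614 on the virgin and 9534 on the PP2 array, 5.91-fold higher, beside 1734 and 18858 on the vehicle and dorsal arrays. All 6 detected probe sets of Fmod were higher, by 1.58 to 3.80 on the log2 scale. Fmod and Kera are counted in the tendon and fascia list as well. Omd, osteomodulin, was 3.39-fold higher and Ogn, osteoglycin, 3.36-fold, from 1478 to 4970, with 2729 and 6030 on the other arrays. Prelp, which anchors basement membranes to collagen, was 2.54-fold higher. Lum, lumican, with 8972 and 8663, and Bgn, biglycan, with 8598 and 8321, did not pass. Dcn, decorin, gave 32528 and 21902, and its virgin signal lay above the brightest signal of the PP2 array, so it could not have been called higher. Both of the 2 detected probe sets of Dcn were lower, the other by a log2 ratio of -1.34. Podn, podocan, was the member called lower, at 623 and 282.

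Collagens and matrix enzymes showed a smaller displacement. Of 26 detected collagen chains 3 were higher and 0 lower. Col12a1, a fibril-associated collagen of tendon and stretched skin, was 970 on the virgin and 3484 on the PP2 array, 3.59-fold higher, with 1322 on the vehicle array and 3108 on the dorsal array, but its other probe set gave a log2 ratio of -0.31. Col11a1 was 2.21-fold higher and Col18a1, whose end is cleaved to endostatin, 2.04-fold. Of the main fibrillar chains of dermis, Col1a1 did not pass, at 4844 and 6630, and Col1a2, at 25696 and 19808, and Col3a1, at 29055 and 25395, were too bright on the virgin array to be called higher within the range of the PP2 array. Of 22 detected matrix proteases and inhibitors, 4 were higher and 2 lower. The higher ones were Adamts4 at 3.27-fold, Adamts12 at 2.31-fold, Adamts5 at 2.09-fold and the membrane metalloproteinase Mmp14 at 2.01-fold, but the other 2 probe sets of Mmp14 were lower, one of them by a log2 ratio of -2.33, and no other probe set of Adamts4 or Adamts5 passed. Adamts4 and Adamts5 cleave aggrecan and versican. The lower ones were Mmp16, from 562 to 175 on 1 of 3 probe sets, the others giving 284 and 159, and 220 and 219, and Mmp19, from 112 to 47.6. In the matricellular and elastic list 2 of 26 genes were higher, the basement membrane protein Nid2 at 2.40-fold and the crosslinking enzyme Lox at 2.11-fold, and 2 were lower. Tnxb, tenascin X, whose loss makes skin hyperextensible, was 2740 on the virgin array, 713 on the PP2 array, 2604 on the vehicle array and 746 on the dorsal array, 3.84-fold lower on the PP2 array. Fibronectin, elastin and Sparc differed by less than 1.1-fold.

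Some nerve sheath genes were also higher. Schwann cells wrap peripheral axons, and those of the skin include myelinating, non-myelinating and repair forms. Of 18 detected genes of a Schwann cell list, 5 were higher on the PP2 array, 0 were lower, and the median log2 ratio was 0.55. Cdh19, a cadherin of the glial lineage, was 822 on the virgin and 4558 on the PP2 array, 5.55-fold higher, with 1277 and 5231 on the vehicle and dorsal arrays. Fabp7, a fatty acid-binding protein of glia, was 226 and 813, 3.59-fold higher, beside 110 and 892. Scn7a, a sodium channel of non-myelinating glia, was 796 and 2634, 3.31-fold higher, beside 1369 and 2454. In each of these the PP2 array was nearer to the dorsal array than to the vehicle array. Sox10, the transcription factor of the neural crest glial and melanocyte lineages, was 3.06-fold higher and the calcium-binding protein S100b 2.26-fold. Of the myelin genes, Mag, at 338 and 266, and Cnp, at 9263 and 6256, were lower on the PP2 array and did not pass. Mbp, at 27387 and 18580, and Pmp22, at 20484 and 17725, were also lower without a call. Ncmap, at 2637 and 3306, and Egr2, at 2904 and 3836, went the other way without a call. All 8 detected probe sets of Mbp were lower, by log2 ratios of -0.15 to -2.49, and all 3 of Cnp, down to -1.31. The virgin signals of Mbp and Pmp22 were too bright for a call of higher within the range of the PP2 array. Melanocytes share Sox10, and of 10 detected melanocyte genes 2 were higher, Sox10 and Tyrp1, and 1 lower, Rab27a. Outside the lists, Gpr37, a receptor found on glia and neurons, was 7.27-fold higher, from 87.1 to 633. Entpd3, an ectonucleotidase known from sensory neurons, was 8.90-fold higher, from 146 to 1304, with 193 on the vehicle array and 1338 on the dorsal array.

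**Figure D2:**
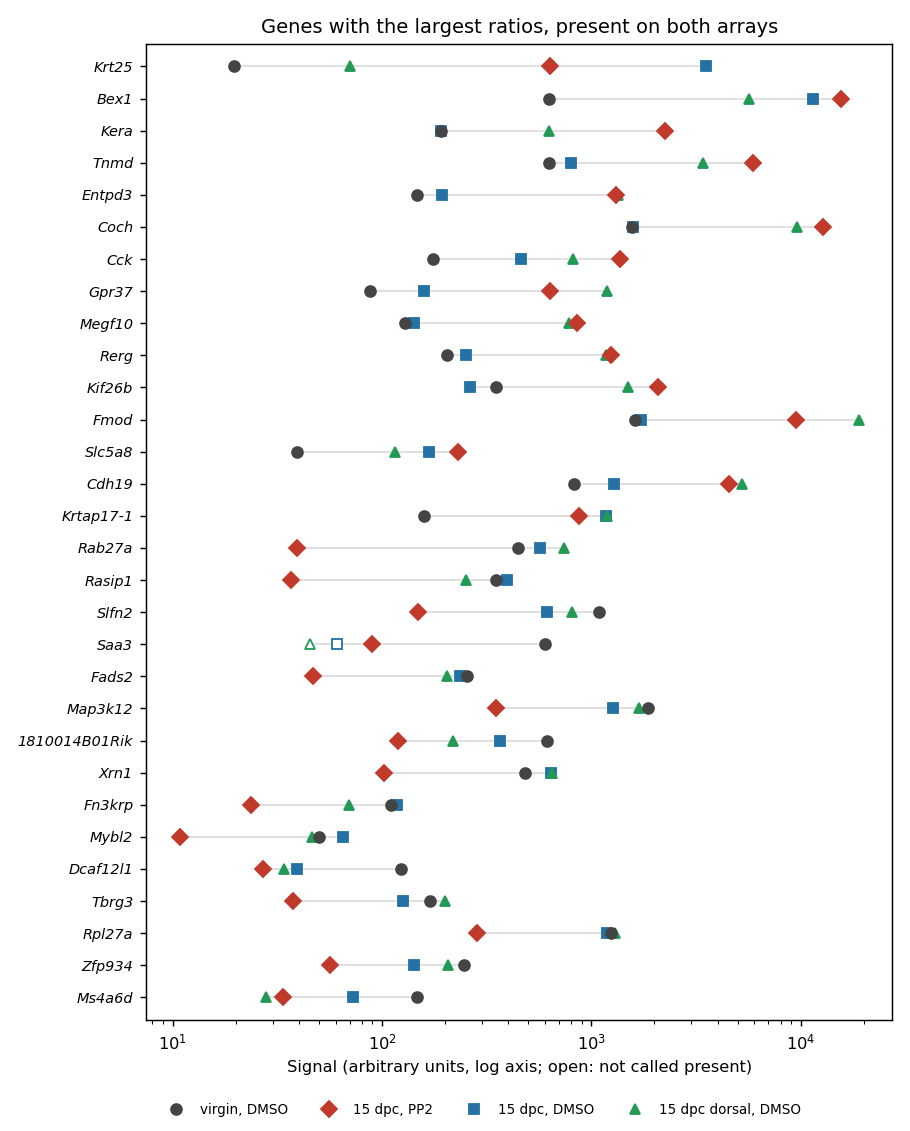
Signals on the 4 arrays (arbitrary units, log axis) of the 15 genes with the largest ratio in each direction among genes present on both the virgin and PP2 arrays, the 15 higher on the PP2 array at the top and the 15 lower below. Filled symbols were called present and open ones were not. For Kera, Tnmd and Coch the vehicle square lies near the virgin circle, while for Krt25 and Bex1 it lies far from it.

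The remaining genes of large ratio were of mixed function. Bex1, a small adaptor protein of neurons and regenerating tissue, was 628 on the virgin and 15491 on the PP2 array, 24.7-fold higher, with 11387 on the vehicle array and 5670 on the dorsal array. All 3 arrays from pregnant mice lay far above the virgin array for Bex1. Cck, the peptide hormone cholecystokinin, was 174 and 1368, 7.85-fold higher, Megf10, an engulfment receptor of glia and muscle precursors, 6.63-fold, and Rerg, a small GTPase, 6.08-fold. Angptl4, a secreted inhibitor of lipoprotein lipase, was 825 on the virgin and 4119 on the PP2 array, 4.99-fold higher, beside 4181 and 7067. Of the genes that were not detected on the virgin array, S100a7l2, a member of the S100 calcium-binding protein family, had the largest bound. Its signal was 582 and present on the PP2 array but absent on the others, at 3.48 on the virgin array, 2.87 on the vehicle array and 28.2 on the dorsal array, so that the difference from the virgin array was at least 54.5-fold. Soga3 was at least 21.3-fold higher, and Aldh1a2, which makes retinoic acid, at least 14.9-fold, at 159 on the PP2 array and 170 on the dorsal array. Nppc, the precursor of C-type natriuretic peptide, was at least 10.0-fold higher, at 143 and 153 on the same arrays.

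Hair follicle products were another group of higher genes. The hair shaft and inner root sheath are built from hair keratins, keratin-associated proteins and trichohyalin, which are made only in a growing follicle. Of 41 measured genes of this list 26 were detected, 14 were higher on the PP2 array and 0 were lower, and the median log2 ratio was 1.64. These genes mark follicle epithelium and not dermal cells. Krt25, an inner root sheath keratin, was 19.6 on the virgin and 635 on the PP2 array, 32.4-fold higher, with 3524 on the vehicle array and 70.4 on the dorsal array. Krtap15 was 4.89 and not present on the virgin array and 108 on the PP2 array, at least 10.1-fold higher, with 5042 and 159 on the other arrays. Krt33a was at least 10.5-fold higher, at 112, with 2473 on the vehicle array. Hair keratin and keratin-associated protein families hold near copies of each other, so the signal of a single member is uncertain. The vehicle array carried by far the most of this material. The summed signal of the 26 genes was 4599 on the virgin array, 7816 on the PP2 array, 55783 on the vehicle array and 7847 on the dorsal array. Only 12 of the 26 were present on both the virgin and PP2 arrays, and their median log2 ratio was 0.36. Genes of the interfollicular epidermis gave no such excess. Of 32 detected basal and suprabasal genes, 3 were higher and 2 lower, and their summed signal was 205355 on the virgin and 171778 on the PP2 array. Krt2, a keratin of the upper epidermis, was at least 6.67-fold higher, and Krt77 was 2.11-fold lower, from 10756 to 5088. In the dermal papilla list, the mesenchyme that drives hair growth, 1 of 20 detected genes was higher, Sox2 from 832 to 2425, and 1 was lower, Alpl from 196 to 92.1.

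Macrophage genes and antigen presentation genes were lower. Of 23 detected macrophage genes, 10 were lower on the PP2 array, 0 were higher, and the median log2 ratio was -0.81. The complement component gene C1qa, with C1qb and C1qc an abundant product of tissue macrophages, was 626 on the virgin array and 48.1 and not present on the PP2 array, at least 13-fold lower, with 171 on the vehicle array and 70.8 on the dorsal array. C1qb was 672 and 263, 2.56-fold lower, and C1qc 329 and 98.4, at least 3.35-fold lower. Fcgr1, a receptor for immunoglobulin G, was 4.04-fold lower, and Cd163, the scavenger receptor for haemoglobin, was 364 on the virgin and 101 on the PP2 array, 3.62-fold lower, beside 157 and 67.8. Adgre1, the F4/80 antigen, was 431 and 154, 2.80-fold lower, with 219 on the vehicle array and 79.2 on the dorsal array. The virgin array was the highest of the 4 for all 10 of the lower genes. The rule picked these genes by their virgin signal, which fixes its rank above the PP2 array and favours it over the others. Other macrophage genes did not pass. Lyz2, lysozyme, read 2051 and 2278, Cd68 235 and 213, Csf1r, the receptor for the growth factor that keeps macrophages alive, 903 and 645, and Mertk, an engulfment receptor, 1328 and 1795. The summed signal of the list was 22643 on the virgin and 17848 on the PP2 array.

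MHC class II molecules present peptides to T cells on dendritic cells, macrophages and B cells, and their genes share a promoter module with an S box, X boxes and a Y box under the coactivator CIITA. Of the 11 detected genes of an antigen presentation and dendritic list, 7 were lower, 0 were higher, and the median log2 ratio was -1.09. The promoter windows of H2-Aa and H2-Eb1 are shown because both genes were lower together and hold the Y box. The windows run from 250 bases before to 50 bases after the start, on GRCm38.p6 and as given by RefSeq, at chr17:34287774-34288073 on the minus strand for H2-Aa and chr17:34305617-34305916 on the plus strand for H2-Eb1. Capitals mark CTGATTGG, the Y box with an inverted CCAAT, searched on both strands.
H2-Aa: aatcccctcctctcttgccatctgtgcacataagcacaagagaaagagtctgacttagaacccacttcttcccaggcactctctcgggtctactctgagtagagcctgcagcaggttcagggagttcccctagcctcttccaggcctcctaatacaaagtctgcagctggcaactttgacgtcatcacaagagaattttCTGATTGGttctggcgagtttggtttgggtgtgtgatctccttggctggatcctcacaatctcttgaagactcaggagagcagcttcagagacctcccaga
H2-Eb1: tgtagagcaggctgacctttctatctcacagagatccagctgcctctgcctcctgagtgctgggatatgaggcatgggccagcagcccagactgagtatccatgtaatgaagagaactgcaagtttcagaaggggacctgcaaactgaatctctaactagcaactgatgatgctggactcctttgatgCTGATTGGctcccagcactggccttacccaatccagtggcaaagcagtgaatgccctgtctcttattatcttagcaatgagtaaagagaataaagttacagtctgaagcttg
The motif starts 51 bases before the start in H2-Aa and 62 bases before it in H2-Eb1. Of 32851 promoter windows of this length, 1346 (4.10%) hold it on either strand. Of the 7 lower genes 4 had a window and 2 of those held the motif, which is a description of letters and not of binding.

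H2-Eb1, the beta chain of the I-E molecule, was 3024 on the virgin and 888 on the PP2 array, 3.41-fold lower, with 1416 on the vehicle array and 744 on the dorsal array. H2-Aa, the alpha chain of the I-A molecule, was 5889 and 2059, 2.86-fold lower, beside 2686 and 1973. H2-Aa had 4 detected probe sets, lower by 1.52 to 1.80 on the log2 scale. Cd74, the invariant chain that escorts class II molecules, was 634 and 195, 3.26-fold lower, with 295 and 336 on the vehicle and dorsal arrays. H2-Ab1 was 2.12-fold lower and H2-DMa, which loads peptides, 2.01-fold, with its other probe set at a log2 ratio of 0.03. With the arrays scaled to one median, neither H2-Ab1 nor H2-DMa would pass 2-fold, and the median log2 ratio of the list was -0.93. Ciita itself was 96.1 and 31.7, marginal on the PP2 array, and at least 3.04-fold lower, while Itgax, the dendritic integrin CD11c, was at least 2.37-fold lower. In each of these genes the virgin array was the highest of the 4, which the choice of genes by their virgin signal favours. The members that did not pass were Epcam, Zbtb46, Fscn1 and Cd86, of which Epcam is also an epithelial gene.

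**Figure D3:**
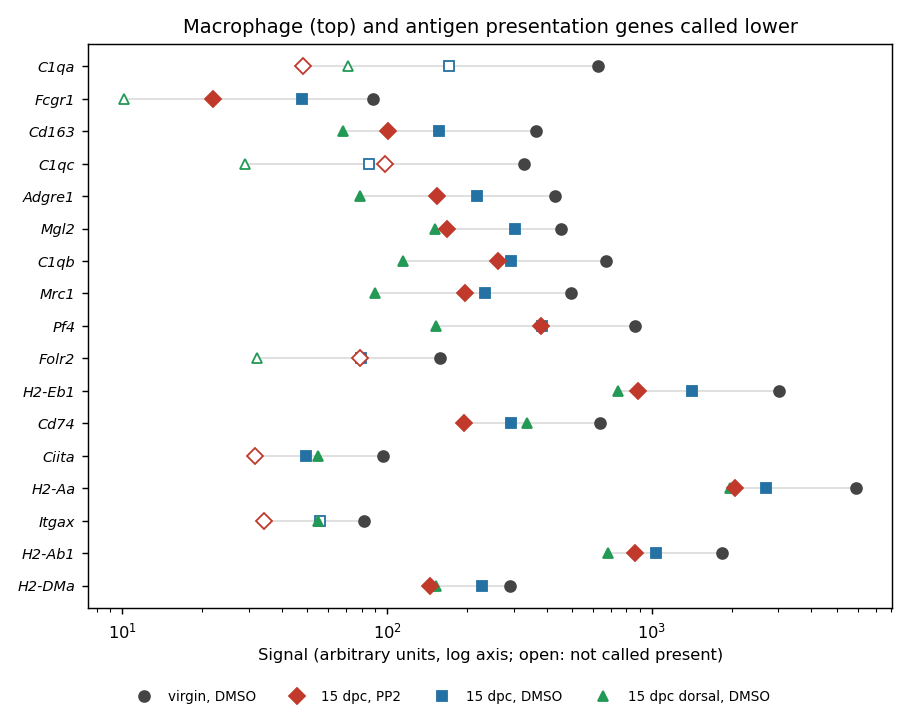
Signals on the 4 arrays (arbitrary units, log axis) of the 10 macrophage genes (top) and the 7 antigen presentation genes (bottom) called lower on the PP2 array, filled where called present and open where not. The virgin circle is the rightmost symbol in every row, and the PP2 diamond and dorsal triangle lie at the left in most. The genes were picked for a virgin signal above the PP2 signal, so the order of these symbols is not independent of the rule.

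Inflammatory mediators divided in both directions. Of 16 detected chemokines 5 were lower and 1 was higher. Ccl11, eotaxin, was 1460 on the virgin and 419 on the PP2 array, 3.49-fold lower, with 383 and 238 on the vehicle and dorsal arrays, and Ccl8, a monocyte chemokine, was 2239 and 728, 3.08-fold lower, beside 782 and 201. Ccl9 was 3.06-fold lower and Ccl6 at least 4.09-fold. Cxcl14, a constitutive chemokine of skin, was the one that was higher, at 1099 and 2347. In the acute inflammation list 3 of 17 detected genes were higher and 3 lower. The cytokine Il6 was 3127 on the virgin and 8093 on the PP2 array, 2.59-fold higher, with 1978 and 2897 on the vehicle and dorsal arrays, so the PP2 array was the highest of the 4. Cxcl2 was 2.17-fold higher and Ccl2 2.02-fold. The acute-phase genes were on the other side. Saa3, serum amyloid A of macrophages and fat cells, was 598 and 90.0, 6.65-fold lower, and was not present on the vehicle and dorsal arrays, at 60.8 and 45.1. Hp, haptoglobin, was 491 and 45.3, at least 10.9-fold lower, and Saa1 2.33-fold lower. The median log2 ratio of the list was -0.05 and turned positive under both scalings, as did that of the chemokines. S100a8, an abundant neutrophil gene, did not pass and was dim on all 4 arrays, at 52.5 on the PP2 array. C3ar1, the receptor for complement C3a, was at least 6.45-fold lower, and Cd59a, which protects cells from complement, was 2.62-fold higher. Of 23 detected interferon response genes 0 were higher and 2 lower, Rsad2 at 2.41-fold and Stat2 at 2.38-fold.

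The lower genes present on both arrays were led by genes outside these groups. Rab27a, a GTPase that docks melanosomes and secretory granules, was 446 on the virgin and 39.0 on the PP2 array, 11.4-fold lower, with 569 and 742 on the vehicle and dorsal arrays, and its 2 detected probe sets were both past 2-fold. Rasip1, an endothelial regulator of vessel lumen formation, was 351 and 36.7, 9.56-fold lower, beside 395 and 252. Slfn2, a schlafen family gene of immune cells, was 1081 and 149, 7.24-fold lower, beside 615 and 808. For these 3 genes the PP2 array was below all 3 DMSO arrays. Fads2, a fatty acid desaturase, was 5.43-fold lower and Map3k12, a stress kinase of neurons, 5.30-fold, from 1857 to 350, with its other 2 probe sets at log2 ratios of -0.42 and -0.96. Rpl27a, a ribosomal protein gene, was 1245 on the virgin and 283 on the PP2 array, with 1192 and 1302 on the other arrays. Some leading genes rested on 1 probe set of several, since the other probe set of Xrn1 gave a log2 ratio of 0.04 and that of Dcaf12l1 gave 0.26. Cenpb, the centromere protein CENP-B, was 238 on the virgin array and 1.87 and absent on the PP2 array, at least 60.0-fold lower, and 254 and 284 on the vehicle and dorsal arrays. Hamp2, a hepcidin gene, differed in the other way, with 2233 on the virgin array and no present call on the PP2, vehicle and dorsal arrays, at 138, 196 and 207. It was at least 16.2-fold lower on the PP2 array than on the virgin array. Of 596 lower genes 439 had 1 detected probe set, and of the 157 with several, 131 had another one in the same direction and 56 another past 2-fold. The corresponding counts for the 440 higher genes were 328, 112, 89 and 39. Of the 131 list members called in either direction, 88 had 1 detected probe set, 19 had another past 2-fold in the same direction, 18 had another in the same direction that did not pass, and 6 had only others in the opposite direction. Those 6 were Col12a1, Edil3, H2-DMa, Mmp14, Nusap1 and Smad7.

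Vessel and fibroblast genes were mostly near equal. Of 25 detected blood endothelial genes 3 were lower and 0 higher. They were Tie1, an angiopoietin co-receptor, from 315 to 95.2 and 3.31-fold lower, Kdr, the main receptor for VEGF, 2.27-fold lower, and Pecam1 2.26-fold lower, while Cdh5, Tek and Emcn read 3399 and 3967, 3158 and 3159, and 2696 and 3114. Of 26 detected fibroblast identity genes 2 were lower and 0 higher, and 21 had a ratio below 1. Clec3b, tetranectin, was 1236 on the virgin array and 188 and not present on the PP2 array, at least 6.58-fold lower, with 894 and 302 on the vehicle and dorsal arrays, and Pi16, a marker of fibroblasts of the deep dermis and fascia, was 2.61-fold lower. Pdgfra, a receptor carried by dermal fibroblasts at large, read 2398 and 4439. Of 14 detected pericyte genes 1 was higher and 2 lower, and of 16 detected adipocyte genes 0 were called in either direction. In the lymphatic endothelial list Sema3d was 3.29-fold higher and Nts 2.07-fold higher, and Prox1, the lymphatic master transcription factor, was 2.48-fold lower. The other detected members of that list were not called, and the cells that gave these signals were not identified. Among mast cell genes Cpa3 was at least 2.46-fold higher, at 418 on the PP2 array, and not present on the other 3. Cma1, at 116 and 195, was also present on the PP2 array alone and did not pass. Kit, at 217 and 148, and Gata2, at 1009.5 and 960, had ratios below 1 and did not pass. Of 12 detected T and natural killer cell genes 1 was higher and 3 lower, all of them dim. The higher one, Cd28, read 4.45 and 14.3, and its lower bound was only 1.34-fold. Mammary epithelium, which grows under abdominal skin in pregnancy, gave 5 detected genes of 17 measured and 0 calls. The erythroid list gave 2 detected genes and 0 calls.

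The genes that the study followed in the dermis were not called between the PP2 and virgin arrays. The paper drew Sfrp1 and Igfbp2 from candidates more than 2-fold higher in 15 dpc abdominal dermis. Its references were virgin abdominal, PP2-injected abdominal and dorsal dermis, so the comparison made here is a different one. Sfrp1, a secreted inhibitor of Wnt signalling, was 857 on the virgin and 888 on the PP2 array, with 851 and 992 on the vehicle and dorsal arrays, by its representative probe set. Its 5 detected probe sets ranged from -1.21 to 0.93 on the log2 scale. One dim probe set read 38.6, not present, on the virgin array, 73.4 on the PP2 array, 235 on the vehicle array and 190.3 on the dorsal array, and another 150.2, 64.9, 249.99 and 99.3 in the same order. On these 2 probe sets the vehicle array was the highest of the 4. It was also the highest on a brighter one, at 731, 698, 815 and 775. On the representative one the dorsal array was the highest. On the remaining one the virgin array was, at 866, 742, 664 and 799, the last 2 not present. Igfbp2, an insulin-like growth factor binding protein, was 2023 and 3113, 1.54-fold higher, beside 9084 on the vehicle array and 646 on the dorsal array. The PP2 array therefore lay nearer to the virgin array than to the vehicle array for Igfbp2. Acta2, the smooth muscle actin of contractile fibroblasts, was 14744 and 10345, 1.43-fold lower, beside 16453 and 7569, and Vim, vimentin, was 39451 and 24733, 1.60-fold lower, beside 29482 and 42093, the virgin signal lying above the brightest signal of the PP2 array. Of 18 detected smooth muscle and myofibroblast genes 1 was higher and 2 lower. The higher one was Kcnmb1, a potassium channel subunit, at least 4.70-fold, and the lower ones were Smtn at 2.16-fold and Myocd at 2.03-fold. The median log2 ratio of the list was -0.29 on the PP2 array and 0.41 on the vehicle array, each against the shared virgin array. By representative probe sets, 0 of 15 detected Src family and partner genes were called. Among the transcripts of kinases that PP2 inhibits, Src read 609 and 606, Fyn 1965 and 2213 and Yes1 1555 and 1737. The family member Fgr read 140 and 94.0. Other probe sets were less even, with a log2 ratio of -2.04 for 1 of Yes1 and 0.59 for the other of Src.

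Related signalling lists held few calls. Of 13 detected Wnt antagonists 2 were higher and 0 lower. Dkk3, a dickkopf family member, was 516 on the virgin and 2396 on the PP2 array, 4.65-fold higher, with 939 and 4790 on the vehicle and dorsal arrays, and both of its probe sets were past 2-fold. Shisa2, which holds Wnt and FGF receptors inside the cell, was 2.68-fold higher. Of 16 Wnt target genes 1 was called, Rnf43 at 2.27-fold lower, and Axin2 read 888 and 1069. In the insulin-like growth factor axis 1 of 20 genes was called, the secreted glycoprotein Stc2, from 2993 to 1336, with 261 on the vehicle array and 1663 on the dorsal array. Of 28 TGF-beta and BMP genes 1 was called, the inhibitor Smad7, from 1848 to 625, with 631 and 568 on the other arrays, and its other probe set gave a log2 ratio of 0.40. Of 18 detected pregnancy hormone receptors and response genes 2 were higher and 0 lower. They were Oxtr, the oxytocin receptor, at 264 and 737, 2.79-fold higher, with 818 on the vehicle array and 186 on the dorsal array, and Greb1, an oestrogen response gene, at least 3.38-fold. Esr1, the oestrogen receptor itself, read 1421 and 1862 and did not pass.

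Cell state lists completed the survey. Of 31 detected proliferation genes 2 were higher, Nusap1 at 2.11-fold and Aurkb at least 2.46-fold, and 1 was lower, Tyms at 2.19-fold. The other probe set of Nusap1 went the opposite way, at a log2 ratio of -0.96. The median log2 ratio was 0.53, with 22 genes above a ratio of 1, and was 0.42 on the vehicle array and -0.63 on the dorsal array against the shared virgin array. Mki67, the Ki67 antigen, read 499 and 720 with 777 and 208 on the vehicle and dorsal arrays. Of 30 immediate early and dissociation stress genes, which respond to tissue digestion within minutes, 1 was higher and 2 were lower. Btg2, an antiproliferative gene, was 13932 on the virgin and 3492 on the PP2 array, 3.99-fold lower, beside 7735 and 11080, and Junb was 8247 and 2229, 3.70-fold lower, beside 3646 and 5824. The other probe set of Btg2 did not pass, at 4714 and 3400. Fos read 29700 and 16605 and Egr1 34131 and 21166, both above the brightest signal of the PP2 array on the virgin array. Of 21 hypoxia and glycolysis genes 1 was higher, Angptl4, and 1 lower, Ddit4. Of 23 amino acid and unfolded protein stress genes 0 were higher and 2 lower, Cars at 2.47-fold and Stc2. Of 20 cholesterol synthesis genes 1 was called, Insig1 at 2.09-fold lower, and of 20 stretch and YAP targets 1 was called, F3 at least 2.02-fold higher. Of 24 detected Hox genes, which record position along the body, 0 were called, and of 16 other positional transcription factors 2 were higher, Pax3 from 277 to 735 and Sim2 from 36.8 to 75.1. In the cornified layer list 2 of 22 detected genes were higher and 2 lower.

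**Figure D4:**
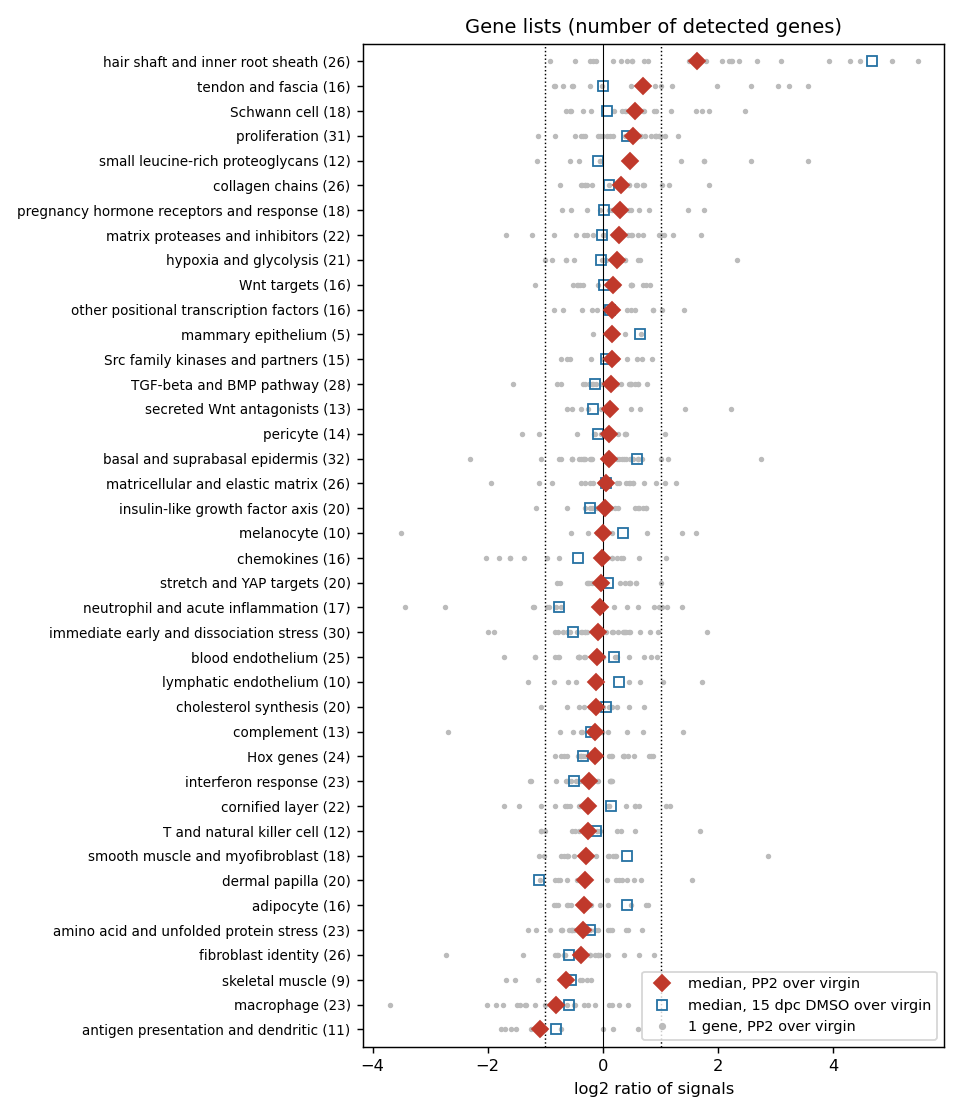
log2 ratio of signals for each gene list with at least 5 detected genes, ordered by the median on the PP2 array over the virgin array (red diamonds), with single genes as grey dots and the median on the vehicle array over the same virgin array as open squares. Hair shaft, tendon and fascia, and Schwann cell lists lie at the top (medians 1.64, 0.70 and 0.55) and macrophage and antigen presentation lists at the bottom (-0.81 and -1.09). Over the genes present on both arrays alone, which were 12 of 26 for hair shaft, these medians were 0.36, 0.48, 0.40, -0.68 and -1.05. The dotted lines mark a 2-fold difference.

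Some tendon and glial genes, such as Fmod, Tnmd and Cdh19, had also been brighter on the dorsal array than on the vehicle array. Other members of those lists were dimmer there. Thbs4 read 305 on the vehicle and 87.3 on the dorsal array, Comp 187 and 59.5, and Mag 415 and 257. The dorsal and vehicle arrays form a pair that has no array in common with the PP2 and virgin pair. The same rule on that pair, dorsal over vehicle, called 564 genes higher (4.31%) and 611 lower (4.66%). This side-by-side reading was chosen after the values were seen. Of the 440 genes higher on the PP2 array, 102 were also higher in the dorsal and vehicle pair, and 70 were lower. The 102 genes are 23.2% of the first list and 18.1% of the second. Calls in both directions of that pair were more frequent among the 440 genes than the 4.31% and 4.66% among all genes. The 23.2% is therefore not by itself a sign of a shared direction. Of the 596 lower genes, 46 were lower in the other pair, 7.72% of the first list and 7.53% of the second, and 35 were higher. Fmod, Tnmd, Coch, Kera, Entpd3, Gpr37, Megf10, Rerg, Kif26b, Cdh19 and Dkk3 were past 2-fold in the same direction in both pairs, by 1.72 (Kera) to 3.44 (Fmod) on the log2 scale for dorsal over vehicle. The hair genes ran the other way, with Krt25 and Krtap15 dimmer on the dorsal array than with vehicle on the abdomen. Across all 13101 genes the log2 ratios of both pairs had a Pearson r of -0.04 and a Spearman rho of -0.11, given as a description, since genes are not independent replicates. Each array holds a single library, so a feature of the PP2 array or of any other single array enters its pair in full.

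**Figure D5:**
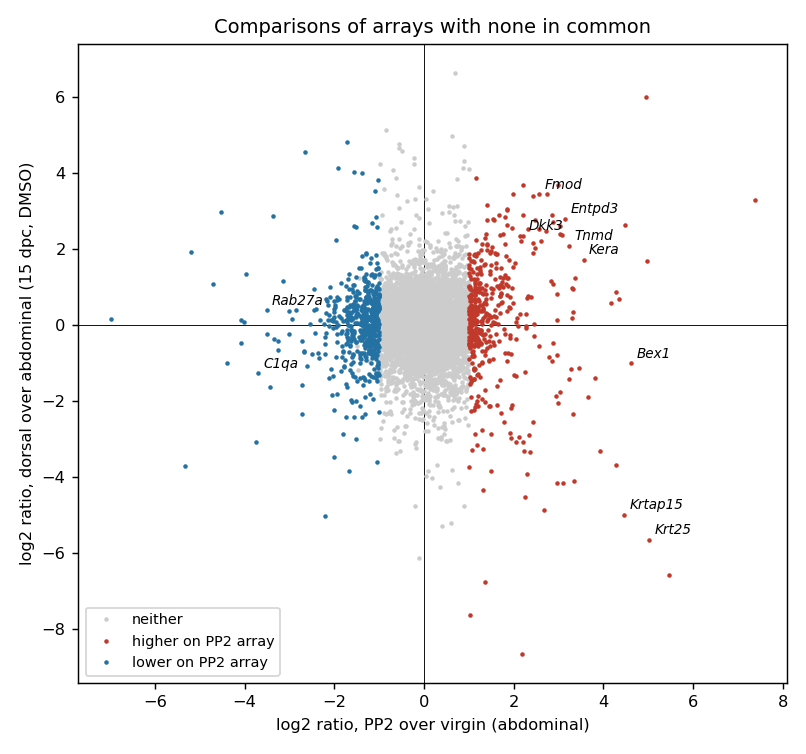
log2 ratio of PP2 over virgin abdominal dermis (x axis) against log2 ratio of dorsal over abdominal 15 dpc DMSO dermis (y axis) for 13101 genes, with genes called higher or lower on the PP2 array in red and blue. Of the 440 red points 102 were also called higher on the dorsal array (Fmod, Tnmd and Kera at the upper right) and 70 called lower (Krt25 and Krtap15 at the lower right).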

How the data were processed

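The authors hybridised RNA of dermal cells with the 3′ IVT Express kit to Affymetrix mouse arrays, 1 per condition, and deposited for each array a MAS5 signal (an intensity on a linear scale, per the file headers) and a detection call for 45101 probe sets. The submitters' processing notes name Affymetrix Expression Console version 1. The signals of every array had a mean near 500 with 2% trimmed at each end, and were used as deposited. The series value table differed from the single-array tables in 0 probe sets, and 0 columns lacked a sample. The genome build behind the signals was not given in the sources used here.

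Gene symbols came from the platform annotation: 34945 probe sets had 1 symbol, 932 several and 9160 none, beside 64 controls. Gene identifiers of 34741 probe sets matched the RefSeq gene table of GRCm38.p6 and 204 did not, which changed 0 symbols. Only single-symbol probe sets were given to genes. Of these, 23415 were called present on at least 1 of the PP2 and virgin arrays. A gene was represented by the detected probe set whose mean log2 signal over the 4 arrays was highest. Probe sets of a gene differed in their log2 ratio with an SD of 0.60 over 5971 genes with several. This spread was the bar for saying that a value moved between settings. It comes from the same RNA and holds no variation between mice, so it is not a replicate error. The number of arrays limits the precision.

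The 42 gene lists held 1017 entries, 82 without a single-symbol probe set, and counts refer to detected members. The comparison, lists and rules were chosen with earlier results of these data known. Genes named are those with the 15 largest ratios in each direction present on both arrays, the 8 largest bounds in each direction, in each list up to 4 detected members of largest log2 ratio, and Sfrp1, Igfbp2, Acta2 and Vim. Other list members named were chosen after their values were seen. Alternatives were other scalings, detection filters, ratios of 1.5 and 3, an offset of 16 and other choices of probe set. Python 3.11.15 with numpy 2.4.6, pandas 2.3.3 and matplotlib 3.10.9 was used.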

Additional observations from a re-analysis of the deposited data

Results flagged for a closer look

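Probe sets without a gene symbol entered no comparison above, and they held differences between the PP2 and virgin arrays. Of 9160 such probe sets 4452 were called present on at least 1 of the 2 arrays. Among them 103 (2.31%) were higher on the PP2 array and 980 (22.0%) were lower, past 2-fold and present on the brighter array, against 3.36% and 4.55% of the named genes. They were flagged because data outside the comparison held a signal. With the 4 groups of brightness taken from the named genes, 26.7% of the unnamed probe sets and 11.4% of the genes were lower in the dimmest group, and 18.1% and 3.48% in the next. Single-symbol probe sets that did not represent their gene gave 2.72% higher and 11.2% lower. On the vehicle array against the same virgin array the unnamed probe sets gave 2.99% higher and 16% lower, and on the dorsal array 7.80% and 3.45%. The cause was not tested.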

How the results depend on the processing

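The numbers of genes called higher and lower were 440 and 596 as reported. Scaling each array to the same median gave 667 higher (416 lower), and other settings gave 662 and 330 after quantile normalization, 260 higher when present calls on both arrays were needed (401 lower), 1212 and 2082 with no detection call needed, 1495 and 1659 at a ratio of 1.5, and 160 and 162 at a ratio of 3. Counting a gene when any of its probe sets passed gave 1571 lower (654 higher). An offset of 16 gave 324 and 417, a rule that all present probe sets must pass 364 and 498, and signals from the series value table gave 440 and 596. The medians of the 42 lists moved by less than 0.60 on the log2 scale under each alternative. The medians of the hair shaft, tendon and fascia, small leucine-rich proteoglycan, Schwann cell, macrophage and antigen presentation lists kept their sign in all of them. Signs turned for the lymphatic, acute inflammation, chemokine, erythroid, immediate early, stretch and Hox lists under both scalings, for cholesterol synthesis, blood endothelium and complement with one median, for T and natural killer cells with quantile normalization, and for basal epidermis, melanocyte, Wnt antagonist and insulin-like growth factor lists with the mean over all probe sets. Of the 199 genes that the naming rule gives, 38 moved by more than that spread in 1 setting. The sign turned for 7 of them in at least 1 setting, 2 with one median, 3 with quantile normalization and 4 with the mean over all probe sets, and 0 of these 7 were called. No paired analysis was possible because each condition had 1 array, and for the same reason no replicate could be left out. Dim probe sets limit what can be said, since the SD of the log2 ratio was 0.92 in the dimmest of the 4 groups of genes and 0.43 in the brightest.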
